A study of Mus musculus with 12 samples.

Results

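Cholesterol synthesis and its control by sterol regulatory element-binding proteins (SREBPs) were followed here in mouse retina through 26 genes. The genes were chosen by name as enzymes of the mevalonate and sterol pathways, SREBP factors, their regulators and a sterol carrier. The rule uses no measured value, although it was written with earlier results of these data known. All 26 were among the 53707 genes of the deposited table, and all 26 passed the filter on low counts that left 21061 genes for testing. Retinas of wild-type C57BL/6J mice at 28 days of age, freed of sclera and pigment epithelium, were kept as explants for 48 hours in Neurobasal-A medium with B27 and N2 supplements and either 5 mM or 25 mM glucose. Each concentration had 3 biological replicates, and each of these had 2 technical replicates, 12 RNA-seq libraries in all. The question was whether glucose availability changes gene expression in the retina. The sources used here do not say whether the biological replicates came from different mice, so p-values measure the spread between these samples. An explant holds all retinal cell types without circulation, and in bulk RNA fewer cells of a type and less RNA per cell cannot be told apart.

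Cells make cholesterol from acetyl-CoA. Mevalonate is turned into isoprene units, these are joined to squalene, squalene is closed to the ring of lanosterol, and a series of demethylations, reductions and isomerisations gives cholesterol. When sterols in the endoplasmic reticulum fall, SCAP carries SREBPs to the Golgi, where they are cut, and their released ends enter the nucleus and turn on the enzymes of the pathway. When sterols are plentiful, INSIG proteins hold SCAP and SREBP back. The retina makes cholesterol itself and also takes it up from the circulation, and photoreceptor discs and glial membranes depend on that supply.

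RefSeq promoter windows (GRCm38.p6, from 250 bases before to 50 bases after a transcript start) were found for 22 of the 26 genes, with 30 windows in all. Fdps, Fdft1, Sqle and Stard4 were not matched. SREBPs bind sterol regulatory elements, of which TCACNCCAC is a classical form, often together with NF-Y at CCAAT and with Sp1 at GC boxes such as GGGCGG. On either strand, CCAAT stood in 21 of the 30 windows (70.0%) against 37.4% of all 32851 windows of the same length, and GGGCGG in 24 (80.0%) against 35.7%. CACGTG, the E-box, stood in 6 of the 30 against 7.2%, and TCACNCCAC in 1 (3.3%) against 1.2%. Windows of the same gene were counted apart, and those of Scap overlap, so CACGTG stood in 5 of the 22 genes. Each motif was searched on its own, so bases could count toward more than 1 of them. The windows below are shown because that of Hmgcs1, the enzyme that makes HMG-CoA, held the single match to TCACNCCAC, while those of Nsdhl and Mvk held 4 and 5 copies of CCAAT with no TCACNCCAC. Capitals mark both motifs, with CCAAT read as ATTGG where it lies on the other strand.
Hmgcs1, chr13:119690101-119690400, plus strand: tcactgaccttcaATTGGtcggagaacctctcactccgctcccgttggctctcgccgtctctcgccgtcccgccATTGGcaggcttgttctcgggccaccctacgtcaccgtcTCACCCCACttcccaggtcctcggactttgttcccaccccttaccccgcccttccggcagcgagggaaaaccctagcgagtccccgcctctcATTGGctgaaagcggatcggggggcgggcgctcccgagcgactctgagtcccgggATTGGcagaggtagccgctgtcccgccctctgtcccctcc
Nsdhl, chrX:72918271-72918570, plus strand: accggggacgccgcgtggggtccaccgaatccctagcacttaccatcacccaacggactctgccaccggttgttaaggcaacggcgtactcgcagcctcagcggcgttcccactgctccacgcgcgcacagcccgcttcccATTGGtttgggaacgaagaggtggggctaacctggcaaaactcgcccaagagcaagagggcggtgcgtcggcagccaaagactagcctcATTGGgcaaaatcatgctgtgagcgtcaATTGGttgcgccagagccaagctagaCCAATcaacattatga
Mvk, chr5:114444019-114444318, plus strand: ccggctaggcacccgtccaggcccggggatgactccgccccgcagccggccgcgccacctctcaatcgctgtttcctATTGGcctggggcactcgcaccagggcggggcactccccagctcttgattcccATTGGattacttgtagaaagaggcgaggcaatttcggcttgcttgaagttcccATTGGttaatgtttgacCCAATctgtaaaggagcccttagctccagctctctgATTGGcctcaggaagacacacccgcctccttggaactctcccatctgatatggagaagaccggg
A match in a window is a description of the sequence and was not tested as a binding site. The 3 genes differed in what they showed between glucose concentrations, as their values show.

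Libraries held between 14815285 and 36692484 estimated counts, and the summed biological replicates between 37944826 and 60098862. Values are given as counts per 1000000 counts of a library (CPM) after TMM normalization, with the technical replicates summed. Rod markers were present in every sample, with a summed level of 8 genes between 2710 and 5170 CPM at 5 mM and between 5890 and 8090 CPM at 25 mM glucose. Of the 8, 5 were called higher at 25 mM, beside 1.47% of all genes. Of 7 vascular markers, 6 were lower, Kdr by only -0.03 on the log2 scale. Their summed level was 942 to 1680 CPM at 5 mM and 509 to 864 CPM at 25 mM. By edgeR 0 were called, although 5 were lower at an unadjusted p under 0.05, beside 15.5% of all genes. The median log2 fold change of the 7 was -3.21 in the first libraries of the samples (batch 1) and -0.81 in the second (batch 2). Of 7 Mueller glia markers, 4 were lower and 3 higher, with sums of 1890 to 2040 CPM and 1550 to 2020 CPM. Microglial sums were 82.2 to 178 CPM and 47.2 to 99.6 CPM, with all 6 markers lower. The 5 fibroblast and matrix markers were all lower too, with sums of 184 to 199 CPM and 26.9 to 131 CPM. Col3a1, a collagen, was called lower (FDR 0.0326 by edgeR), beside 0.513% of all genes. The median log2 fold change of the matrix markers tested within a batch was -2.28 in batch 1 and -0.39 in batch 2. The 6 markers of the pigment epithelium summed to at most 7.0 CPM in any sample, with Rpe65 below 0.1 CPM throughout. Whether these cell type differences had a part in the values of the cholesterol genes was not tested.

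One library stood apart for the cholesterol genes. The first library of 25 mM replicate 2 held the lowest CPM of all 12 libraries in 14 of the 26 genes (53.8%, beside 18.5% of all genes tested), and its median log2 difference from its technical partner was -0.37 over the 26 genes, beside 0.06 over all genes. In 7 genes it held at most 0.5 times the CPM of that partner, with 0.5 added to each value (26.9%, beside 9.82% of all genes). Srebf2, for example, had 22.7 CPM in this library and 65.2 in its partner, Hmgcs1 143 and 343 CPM, and Sqle 38.5 and 81.5 CPM. It was also the library with the fewest counts and, at 15.4%, the largest mitochondrial share, and the part of these in its values was not tested. Without it, the median log2 fold change of the 26 genes was -0.27, 19 were below 0, and edgeR called 0 of the 26 and 0 of all genes.

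None of the 26 genes was called at a false discovery rate (FDR) under 0.05, with the lowest FDR at 0.0736 (edgeR's quasi-likelihood test, Benjamini-Hochberg adjustment over all genes). Of all genes tested, 1.98% were called. At an unadjusted p under 0.05 stood 7 of the 26, all with lower values at 25 mM glucose (26.9%, beside 15.5% of all genes with lower values), and 0 with higher values (beside 13.2%). DESeq2 called 5 of the 26, all lower (19.2%, beside 16.6% of all genes called and 9.54% called lower). With limma-voom 0 were called, beside 1.98% of all genes. At an FDR under 0.01 with a fold change over 2, the thresholds used in the study, edgeR, DESeq2 and limma-voom each placed 0 of the 26, beside 0, 6.59% and 0 of all genes. The study itself reported genes at these thresholds, most of them higher at 25 mM glucose. The edgeR fit used here therefore differs from the study's, and the reason was not tested.

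The values nevertheless lay mostly on one side. The log2 fold change of 25 mM over 5 mM glucose was below 0 for 21 of the 26 genes (80.8%, beside 50.7% of all genes tested), with a median of -0.29 beside -0.01 for all genes. In 9 of the 26 all 3 samples at 25 mM lay below all 3 at 5 mM (34.6%, beside 15.8% of all genes), and in 0 all lay above (beside 16%). The 9 were Acat2, Fdps, Sqle, Lss, Lbr, Nsdhl, Hsd17b7, Ebp and Stard4, which belong to every stretch of the route from acetyl-CoA units to cholesterol and to its transport. Across the 12 single libraries, 2 genes, Acat2 and Stard4, kept the 6 libraries at 25 mM below the 6 at 5 mM (7.69%, beside 1.36% of all genes).

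**Figure D1:**
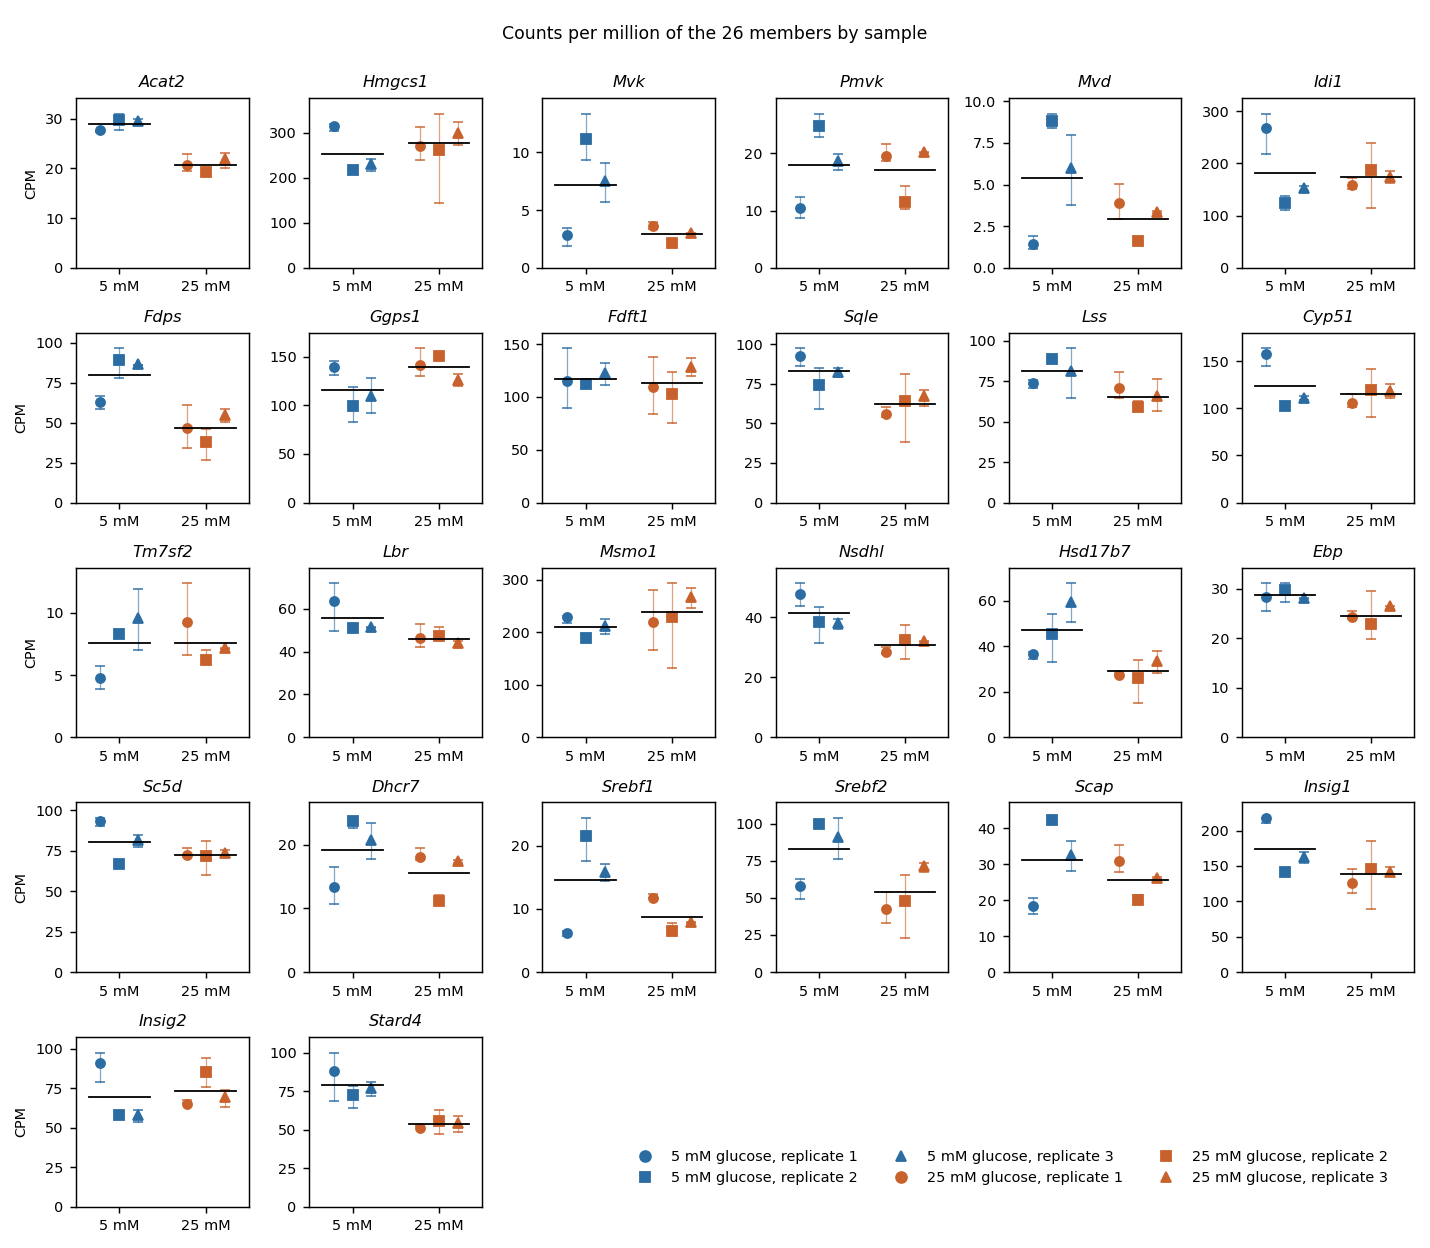
CPM of each gene (vertical axis, from 0) in the 3 biological replicates at 5 mM and 25 mM glucose. Large symbols are summed samples, thin ticks joined by a line are the 2 technical replicates, and black bars are group means; Stard4 shows 72.5 to 88.4 CPM at 5 mM and 51.3 to 55.5 CPM at 25 mM, while Mvd and Srebf1 spread widely within the 5 mM group.

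**Figure D2:**
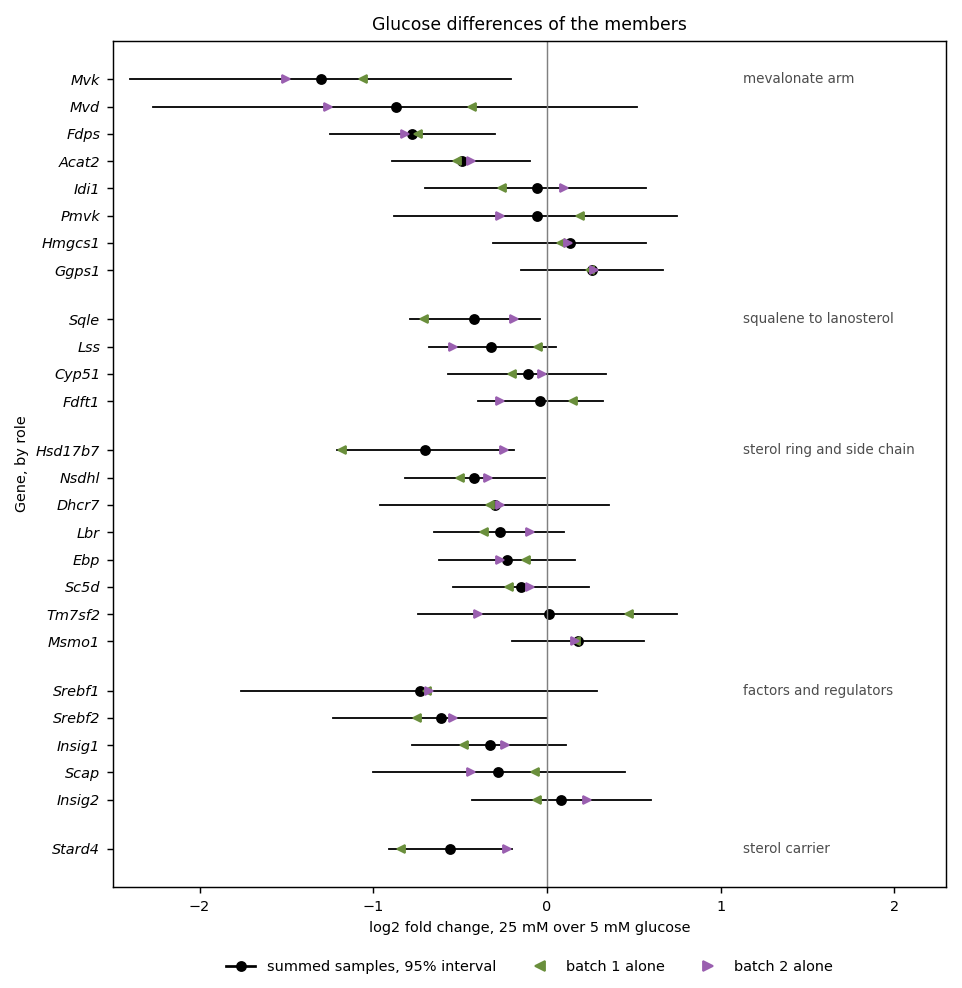
Log2 fold change of 25 mM over 5 mM glucose (horizontal axis) for the 26 genes, by role, with its 95% interval as a line and the values of each batch alone as triangles. Of the 26 points, 21 lie left of 0, and the interval of Mvk, from -2.40 to -0.21, is far wider than that of Acat2, from -0.89 to -0.10.

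The mevalonate arm was represented by 8 genes. Of these, 6 had a log2 fold change below 0, 3 had an unadjusted p under 0.05, and the median was -0.28. Fdps, the synthase that joins isoprene units to farnesyl diphosphate, had 62.8, 89.0 and 86.8 CPM in replicates 1, 2 and 3 at 5 mM glucose and 46.5, 38.1 and 54.7 CPM at 25 mM. The lowest sample at 5 mM was replicate 1, and it still lay above every sample at 25 mM. On the log2 scale the difference was -0.78 (95% interval -1.25 to -0.30, n = 3 per group), with the lowest FDR among the 26 genes, 0.0736 by edgeR. Acat2, which condenses acetyl-CoA units in the cytosol, had 27.8, 29.7 and 29.6 CPM at 5 mM and 20.7, 19.2 and 21.9 CPM at 25 mM. Both groups were tight and did not overlap, with a log2 fold change of -0.49 ± 0.17 (SE) and an FDR of 0.115 by edgeR.

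Mvk, mevalonate kinase, had the lowest log2 fold change of all 26 genes. Its values were 2.87, 11.2 and 7.53 CPM at 5 mM and 3.59, 2.13 and 2.98 CPM at 25 mM. Replicate 1 at 5 mM sat among the 25 mM samples, far from the other two of its group, so the groups overlapped. Over all samples its log2 fold change was -1.30 ± 0.48 (SE; FDR 0.125 by edgeR), and leaving out 1 sample at a time gave values from -1.68 without that replicate (FDR 0.0139) to -0.85 without 5 mM replicate 2 (FDR 0.353). Mvd, which decarboxylates mevalonate diphosphate, showed the same arrangement, with 1.46, 8.83 and 5.98 CPM at 5 mM and 3.89, 1.59 and 3.37 CPM at 25 mM. Here replicate 1 at 5 mM was the lowest of all 6 samples. For Mvd the log2 fold change was -0.87 ± 0.61 (SE; FDR 0.361 by edgeR), and it ran from -1.32 without that replicate (FDR 0.042) to -0.34 without 5 mM replicate 2 (FDR 0.783). Pmvk, phosphomevalonate kinase, had 10.4, 24.7 and 18.7 CPM at 5 mM and 19.6, 11.5 and 20.3 CPM at 25 mM, so the groups overlapped almost completely (log2 fold change -0.06 ± 0.36, SE).

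Hmgcs1, whose promoter window held the sterol regulatory element motif, did not share the lower values. It had 316, 217 and 230 CPM at 5 mM and 270, 262 and 300 CPM at 25 mM. Replicate 1 at 5 mM was the highest of all samples here, and the other two of its group were the lowest. The log2 fold change was 0.13 (95% interval -0.31 to 0.57), and 0.31 without 5 mM replicate 1. Idi1, the isomerase of isopentenyl diphosphate, had 267, 124 and 153 CPM at 5 mM and 158, 188 and 174 CPM at 25 mM, again with replicate 1 at 5 mM on top (log2 fold change -0.06 ± 0.28, SE). Ggps1, which makes geranylgeranyl diphosphate on a side branch, had the highest log2 fold change of the 26 genes, 0.26 ± 0.18 (SE), with 139, 99.1 and 110 CPM at 5 mM and 141, 151 and 126 CPM at 25 mM. All 3 genes had overlapping groups.

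The 4 genes from squalene to lanosterol all had a log2 fold change below 0, with a median of -0.22. Sqle, squalene epoxidase, had 92.4, 74.0 and 82.7 CPM at 5 mM and 55.9, 63.9 and 67.0 CPM at 25 mM. The groups did not overlap, and the log2 fold change was -0.42 ± 0.16 (SE; FDR 0.144 by edgeR). It was -0.71 in batch 1, which holds the library that stood apart, and -0.19 in batch 2, and without that library it was -0.27 (FDR 0.441). Lss, lanosterol synthase, had 74.1, 89.0 and 81.3 CPM at 5 mM and 71.0, 59.0 and 66.2 CPM at 25 mM, separated by a narrow gap between replicate 1 of each group. Its log2 fold change was -0.32 ± 0.16 (SE; FDR 0.224 by edgeR), and it was -0.54 in batch 2 and -0.05 in batch 1. Fdft1, squalene synthase, had 115, 112 and 123 CPM against 109, 103 and 128 CPM, and Cyp51, the lanosterol demethylase, had 158, 103 and 111 CPM against 106, 120 and 118 CPM. Both overlapped, with log2 fold changes of -0.04 and -0.11 (standard errors 0.16 and 0.20).

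The 8 genes that work on the sterol ring and side chain had a median log2 fold change of -0.25, and 6 of them lay below 0. Hsd17b7, the ketoreductase of the demethylation complex, had 36.8, 45.2 and 59.3 CPM at 5 mM and 27.2, 26.1 and 33.7 CPM at 25 mM. The groups did not overlap, although the 5 mM samples were spread and 25 mM replicate 3 came close to 5 mM replicate 1. Its log2 fold change was -0.70 ± 0.22 (SE; FDR 0.0967 by edgeR), being -1.18 in batch 1 with an FDR of 0.0393 and -0.25 in batch 2 with an FDR of 0.652. Nsdhl, the dehydrogenase of the same complex, had 47.6, 38.3 and 38.0 CPM at 5 mM and 28.3, 32.4 and 32.1 CPM at 25 mM. Every sample at 25 mM lay below the 5 mM group, with a log2 fold change of -0.42 ± 0.18 (SE; FDR 0.165 by edgeR). Msmo1, the methyl oxidase that works beside them, had 228, 188 and 212 CPM at 5 mM and 219, 228 and 266 CPM at 25 mM, and so did not share the lower values of its complex (log2 fold change 0.18, 95% interval -0.20 to 0.56).

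Ebp, the sterol isomerase, had 28.3, 29.7 and 28.1 CPM at 5 mM and 24.2, 22.8 and 26.4 CPM at 25 mM. These groups did not overlap but lay close together, with a log2 fold change of -0.23 (95% interval -0.62 to 0.16). Lbr, the lamin B receptor with sterol reductase activity, had 63.6, 51.2 and 51.6 CPM at 5 mM and 46.4, 47.3 and 43.9 CPM at 25 mM (log2 fold change -0.27 ± 0.16, SE). It too was separated, with most of its 5 mM excess in replicate 1, and without that replicate the log2 fold change was -0.16. Sc5d, the sterol desaturase, had 93.6, 66.8 and 81.5 CPM against 72.3, 71.5 and 73.8 CPM, and Dhcr7, the last reductase of one branch, had 13.3, 23.7 and 20.7 CPM against 18.1, 11.2 and 17.5 CPM. Tm7sf2, a second sterol reductase, had 4.73, 8.28 and 9.59 CPM against 9.30, 6.24 and 7.17 CPM. These last 3 genes overlapped between groups, with log2 fold changes of -0.15, -0.30 and 0.01 (standard errors 0.17, 0.29 and 0.32).

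Among the factors and regulators, 4 of 5 genes had a log2 fold change below 0, with a median of -0.33, but in none did the groups separate. Srebf2, which encodes SREBP-2, the main activator of cholesterol synthesis, had 57.8, 99.7 and 91.2 CPM at 5 mM and 42.7, 48.2 and 71.4 CPM at 25 mM. The overlap came from 5 mM replicate 1 and 25 mM replicate 3. Its log2 fold change was -0.61 ± 0.27 (SE; FDR 0.175 by edgeR), and it was -0.82 without 5 mM replicate 1 (FDR 0.0349), -0.87 without 25 mM replicate 3 (FDR 0.0933) and -0.46 without the first library of 25 mM replicate 2 (FDR 0.353). Srebf1, which encodes SREBP-1, had 6.12, 21.6 and 15.9 CPM at 5 mM and 11.7, 6.51 and 7.91 CPM at 25 mM. Again replicate 1 at 5 mM was the lowest of all 6. The log2 fold change of Srebf1 was -0.73 ± 0.45 (SE; FDR 0.302 by edgeR), and it ran from -1.10 without that replicate (FDR 0.0314) to -0.35 without 5 mM replicate 2 (FDR 0.697).

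Scap had 18.3, 42.4 and 32.7 CPM at 5 mM and 30.8, 20.1 and 26.3 CPM at 25 mM (log2 fold change -0.28 ± 0.32, SE). Insig1, itself a target of SREBPs, had 218, 142 and 163 CPM at 5 mM and 126, 146 and 142 CPM at 25 mM (log2 fold change -0.33 ± 0.19, SE). Its difference was -0.14 without 5 mM replicate 1 and -0.19 without the first library of 25 mM replicate 2. Insig2, which is expressed without that dependence in many tissues, had 91.1, 58.1 and 58.1 CPM at 5 mM and 65.0, 85.2 and 69.2 CPM at 25 mM (log2 fold change 0.08 ± 0.22, SE). In Scap replicate 1 at 5 mM was the lowest sample, while in Insig1 and Insig2 it was the highest.

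Stard4, a cytosolic carrier of cholesterol between membranes and a known SREBP-2 target, had 88.4, 72.5 and 76.9 CPM at 5 mM and 51.3, 55.5 and 54.6 CPM at 25 mM. The groups were far apart for their spread. The log2 fold change was -0.56 ± 0.16 (SE; 95% interval -0.91 to -0.20; FDR 0.0768 by edgeR). It was -0.84 in batch 1 with an FDR of 0.0245 and -0.23 in batch 2 with an FDR of 0.575, and in single libraries the values ran from 64.0 to 100 CPM at 5 mM and from 46.9 to 62.7 CPM at 25 mM.

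The position of 5 mM replicate 1 followed the base composition of the genes. Over the 26 genes, the log2 difference of that sample from the other 5 mM replicates had a Pearson correlation of -0.90 with the GC content of the transcripts, and -0.89 without Idi1, whose main transcript had no match in the annotation. Over 20307 genes with a GC value the Spearman correlation was -0.71. These are correlations across genes, which share the same libraries and are not independent. All 10 members over 50% GC were lower in replicate 1 than in the others, by a median of -0.93 on the log2 scale and down to -1.99 for Mvd. Of the 16 members at or below 50% GC, 4 were lower and the median was 0.31, with Idi1 highest at 0.96. The same correlation over the members was 0.92 for 5 mM replicate 2 and 0.72 for 5 mM replicate 3. Each sample was set against the other 2 of its concentration, so the values of a concentration depend on each other. They cannot show which of the 5 mM samples departed from the rest. At 25 mM the correlation was -0.82 for replicate 2, 0.66 for replicate 1 and 0.37 for replicate 3. Spearman correlations of these 25 mM samples, in the same order, were -0.8, 0.5 and 0.4 over the members and -0.6, 0.06 and 0.44 over all genes. The value of 25 mM replicate 1 was thus larger over the members than over all genes, and it is not independent of that of replicate 2.

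The glucose difference itself followed GC content across all genes, with a Spearman correlation of -0.43. Genes over 50% GC had a median log2 fold change of -0.33 over 8625 genes, and those at or below 50% GC had 0.16 over 11682 genes. The 10 members over 50% GC had a median of -0.46. The 16 members at or below it had a median of -0.25, with 12 of the 16 below 0 (75%) where 37.4% of all genes of that composition were below 0. With offsets for GC content and transcript length, the medians of the members were -0.09 over 50% GC and -0.34 at or below it, beside -0.02 and 0.01 for all genes. The offsets were fitted over all genes of each sample, so all-gene medians near 0 follow from the fit. They would also take out a glucose difference that itself follows GC content or length.

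With those offsets the order of the genes changed. Mvk, Mvd, Srebf1 and Srebf2 stood at -0.67, -0.17, -0.11 and -0.17, with FDR values from 0.115 to 0.779. Acat2, Fdps, Lbr, Nsdhl and Stard4 were called lower, at -0.45, -0.61, -0.48, -0.54 and -0.69 (FDR 0.0454, 0.0242, 0.0351, 0.0302 and 0.0163 by edgeR). That is 19.2% of the 26 genes, beside 12.9% of all genes called with the offsets and 6.3% called lower. Hsd17b7 had the lowest value with the offsets, -0.86, and was not called (FDR 0.0719 by edgeR). With a replicate block added to the offsets, Hsd17b7 was called (-0.82, FDR 0.0346 by edgeR) and Acat2 was not (-0.45, FDR 0.0709). Without 5 mM replicate 1 and without offsets, 7 of the 26 were called lower, namely Mvk, Mvd, Fdps, Hsd17b7, Srebf1, Srebf2 and Stard4 (26.9%, beside 26.6% of all genes called and 14.9% called lower). Fdps and Stard4 were the members called both with the offsets alone and without that replicate. The share of all genes called in both fits is not given here, and the fits share most of their samples. The part of base composition in the glucose differences of single genes was not tested beyond these values.

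**Figure D3:**
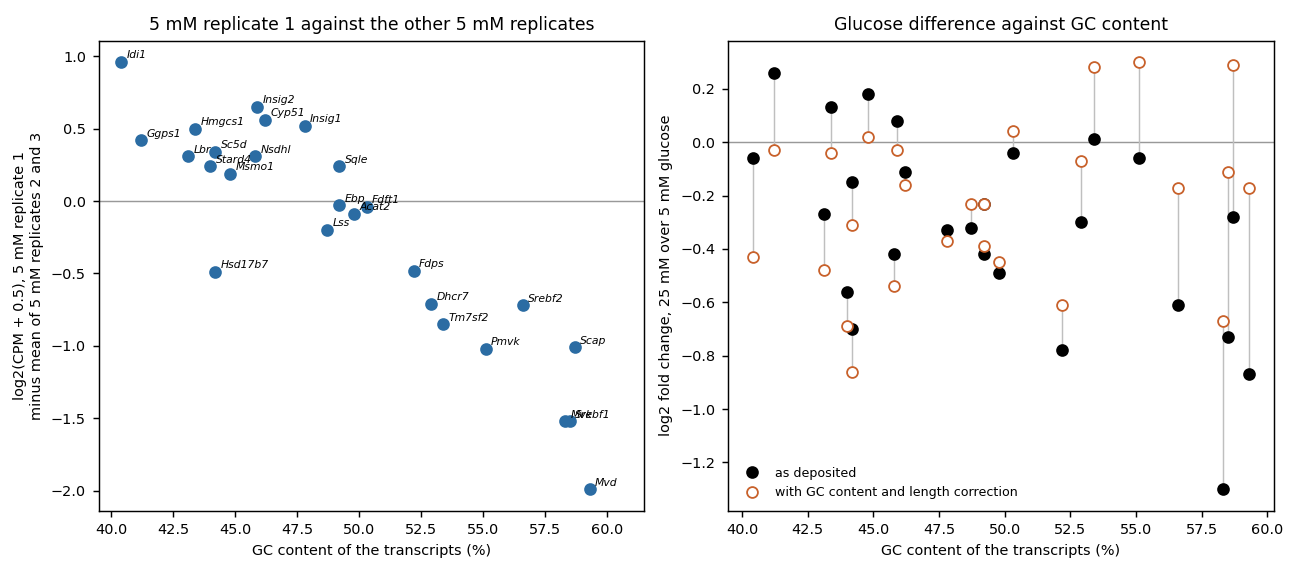
Left, the log2 difference of 5 mM replicate 1 from the mean of the other 5 mM replicates (vertical axis) against the GC content of each gene's transcripts in percent (horizontal axis); the 26 points run from 0.96 for Idi1 down to -1.99 for Mvd. Right, the log2 fold change of 25 mM over 5 mM glucose by edgeR against GC content, joined for each gene. Filled points, marked as deposited in the plot, are from the fit without offsets, and open points from the fit with GC content and length offsets.

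The labels give the first technical replicate of every sample as batch 1 and the second as batch 2, so the batches are repeat libraries of the same 6 samples and not independent of each other. The median log2 fold change of the 26 genes was -0.29 in batch 1 and -0.27 in batch 2. In batch 1, Hsd17b7 and Stard4 were called lower (7.69%, beside 17.3% of all genes called and 10.1% called lower). In batch 2 edgeR called 0 of the 26 and 0 of all 18811 genes. In Hsd17b7 the library that stood apart held 14.9 CPM and its batch 2 partner 33.8, and in Stard4 46.9 and 62.7. The difference between the batches was tested as an interaction over the 12 libraries of the 6 samples, with the biological replicate as a block, so its error is that between repeat libraries. It had an unadjusted p of 0.0278 for Hsd17b7 and 0.0317 for Stard4, and their FDR values were 0.272 and 0.281. Those were the only members with an unadjusted interaction p under 0.05, beside 15.5% of 20306 genes, and edgeR called the interaction for 0 genes.

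Levels of different genes were compared per kilobase of annotated exon. At 5 mM glucose, Insig1 had 56.3 ± 12.6 CPM per kilobase (SD, n = 3), Hmgcs1 55.4 ± 11.6 and Idi1 51.7 ± 21.6, and these 3 did not differ beyond their spread. Msmo1 followed with 34.1 ± 3.27, Cyp51 with 28.1 ± 6.73 and Fdft1 with 27.6 ± 1.36. The lowest were Tm7sf2 with 1.71 ± 0.571, Srebf1 with 2.58 ± 1.39, Mvk with 2.69 ± 1.55 and Mvd with 2.92 ± 2.00, which also overlapped. At 25 mM glucose, Hmgcs1 had 60.4 ± 4.31, Idi1 49.4 ± 4.31 and Insig1 44.6 ± 3.48. When lengths came from the transcripts that carried the counts, Msmo1 led at 5 mM with a length-scaled level of 224 TPM, before Hmgcs1 with 148, Insig1 with 147 and Fdps with 121, so the order of these genes differed between the lengths. Idi1 has no place in that second order, since its gene count was 32.9 times the sum of its matched transcripts.

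The transcript table allowed forms of a gene to be set beside each other. Transcript counts are given without scaling for depth, which differed between the samples. For Srebf1, the transcript starting at position 60222581 of chromosome 11 held 0, 19.3 and 12.3 estimated counts at 5 mM and 4.6, 2.2 and 0.7 at 25 mM. The coding transcript starting downstream at 60220604 held 200.8, 684.8 and 488.2 counts at 5 mM and 118.6, 70.8 and 160.4 at 25 mM. Nearly all counts of the pair thus belonged to the downstream start in every sample, and the log2 ratio of the pair differed by 0.91 between concentrations with overlapping groups (two-sided exact permutation test, p = 0.5, where 3 against 3 cannot go below 0.1). The coding transcript made up 60.5% of Srebf1 transcript counts at 5 mM and 34.7% at 25 mM.

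Transcripts annotated with a retained intron could be set against coding transcripts in 16 of the 26 genes. The log2 ratio was higher at 25 mM glucose in all 16, with a median difference of 0.70, beside a median of 0.53 over 7046 genes, of which 5938 were higher. In 5 of the 16 the groups did not overlap (31.2%), near the 33.6% of all genes, and in 0 were they separated downwards (beside 1.04%). The clearest of the 5 was Sqle, with 200.2, 165.3 and 178.6 retained-intron counts at 5 mM and 224.7, 172.7 and 242.2 at 25 mM. Its coding counts were 4889.2, 3084.7 and 3654.5 at 5 mM and 2203.9, 2216.4 and 2777.3 at 25 mM. The log2 ratio therefore went from a mean of -4.39 ± 0.20 (SD, n = 3) to -3.50 ± 0.19, a difference of 0.90 (exact permutation test, p = 0.1, the smallest possible).

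In Mvk the retained-intron form held 57.8, 102.4 and 90.8 counts at 5 mM and 69.1, 65.4 and 66.8 at 25 mM, while coding forms held 89.7, 367.9 and 248.9 against 85.7, 22.6 and 61.3. The difference of the ratio was 1.75 (exact permutation test, p = 0.1), and the lower CPM of Mvk at 25 mM lay mainly in its coding forms. In Lss most counts belonged to retained-intron forms in every sample. Coding forms of Lss held 24.0, 838.8 and 557.6 counts at 5 mM and 12, 10 and 13 at 25 mM, so that 5 mM replicate 1 resembled the 25 mM samples. The ratio of Lss differed by 3.99 (exact permutation test, p = 0.1), with an SD of 3.07 at 5 mM. Srebf2 had 1660.9, 3399.1 and 2888.6 coding counts at 5 mM and 1099.8, 665.1 and 1429.2 at 25 mM, with retained-intron counts of 1427.9, 1543.7 and 1619.8 against 778.3, 905.2 and 1517.1. The ratios of Srebf2 overlapped, with a difference of 0.74 (exact permutation test, p = 0.2).

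**Figure D4:**
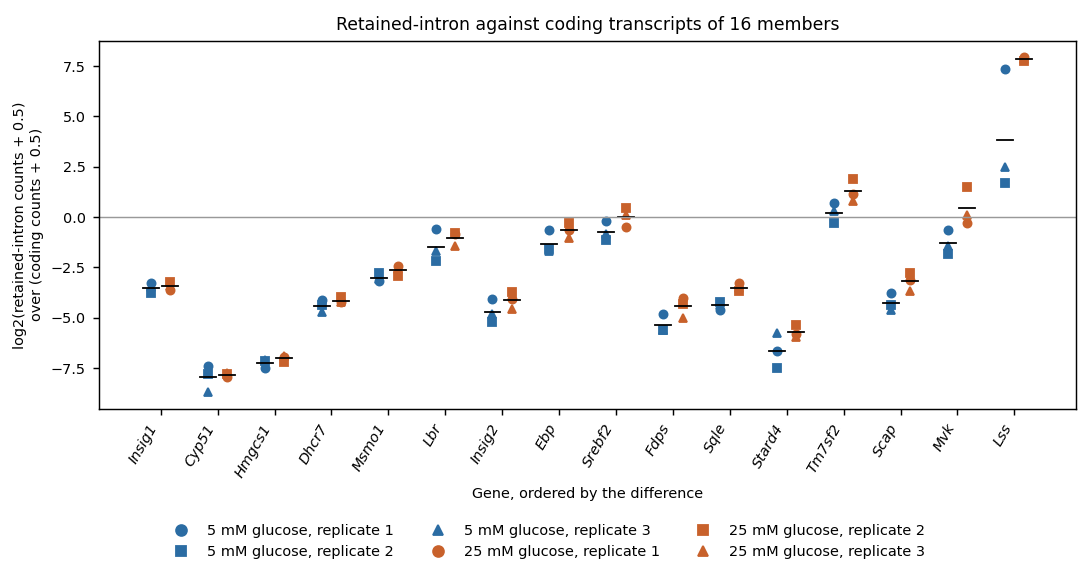
Log2 ratio of retained-intron to coding transcript counts, each with 0.5 added (vertical axis), in the 6 summed samples for 16 genes ordered by the difference between concentrations; black bars are group means. Values at 25 mM lie above those at 5 mM on average in all 16 genes, and Lss shows 7.36 in 5 mM replicate 1 against 1.69 and 2.50 in the others of that group.

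Genes around the pathway were followed in 5 further lists with 56 genes, all tested. Of these, 1 was called, Scd1, lower at 25 mM, and 15 had an unadjusted p under 0.05, with 14 lower, where 1.98% of all genes were called and 28.7% had such a p. With the GC content and length offsets the median of the 56 genes was -0.12, beside -0.16 without them. In the list of SREBP processing and degradation, 0 of 10 genes were called by edgeR and 2 had an unadjusted p under 0.05, with a median log2 fold change of -0.09. Its extremes were Sec24d, a cargo subunit of the coat that carries proteins from the endoplasmic reticulum (-0.90), Ube2g2, a ubiquitin-conjugating enzyme (-0.44), and Mbtps1 and Rnf139, the site-1 protease of SREBPs and a ubiquitin ligase (0.21 each). Mbtps2, the site-2 protease, had 0.04, and with the offsets Mbtps1 had 0.42 (FDR 0.0803 by edgeR) and Mbtps2 -0.25.

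Genes of LXR signalling and efflux had a median of -0.46 with 0 of 7 called by edgeR and 3 at an unadjusted p under 0.05. With the offsets their median turned to 0.09. Abca1, the efflux pump, had a log2 fold change of -1.03 ± 0.25 (SE; FDR 0.0664) and Lpcat3, a phospholipid acyltransferase, -0.96 ± 0.24 (SE; FDR 0.0672). At the other end stood Abcg4, another sterol transporter, with 0.81 ± 0.30 (SE; FDR 0.131) and Abcg1 with 0.22. Abca1 had -1.63 in batch 1 alone and -0.48 in batch 2 alone, Lpcat3 -1.29 and -0.58, and Abcg4 1.52 and 0.25. In the list of trafficking, esterification and turnover, 12 of 14 genes were below 0, with a median of -0.44, or -0.14 with the offsets. There 0 were called by edgeR and 4 stood at an unadjusted p under 0.05. Lipa, the lysosomal lipase that frees cholesterol from its esters, had -1.21 ± 0.26 (SE; FDR 0.0537) and Soat1, which esterifies it, -0.89 ± 0.22 (SE; FDR 0.0671). Lipa had -1.91 in batch 1 alone and -0.59 in batch 2 alone, and Soat1 -1.41 and -0.43. The highest were Gramd1b, a sterol carrier at membrane contacts, with 0.27 and Cyp46a1, the cholesterol 24-hydroxylase of neurons, with 0.01.

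The fatty acid genes driven by SREBP-1 had a median of -0.39, or -0.30 with the offsets, with 9 of 14 below 0. Scd1, a desaturase of fatty acids, had 23.5 ± 1.97 CPM at 5 mM (SD, n = 3) and 10.2 ± 1.53 CPM at 25 mM, with a log2 fold change of -1.21 ± 0.21 (SE; FDR 0.0389 by edgeR). Fasn, fatty acid synthase, had -1.18 ± 0.45 (SE; FDR 0.136) with overlapping groups, and -0.52 with the offsets (FDR 0.18). Scd1 had -1.58 in batch 1 alone (FDR 0.0129 by edgeR) and -0.8 in batch 2 alone (FDR 0.403), while Fasn had -0.91 and -1.4. The highest were Acsl3, an acyl-CoA synthetase, with 0.45 and Acaca, acetyl-CoA carboxylase, with 0.43, neither called. In the list of isoprenoid use, 0 of 11 genes were called by edgeR and 0 had an unadjusted p under 0.05, with a median of -0.01, or 0.10 with the offsets. Nus1 and Dolk, of dolichol synthesis, had -0.42 and -0.38, and Pdss1 and Pdss2, which make the tail of ubiquinone, had 0.44 and 0.23.

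**Figure D5:**
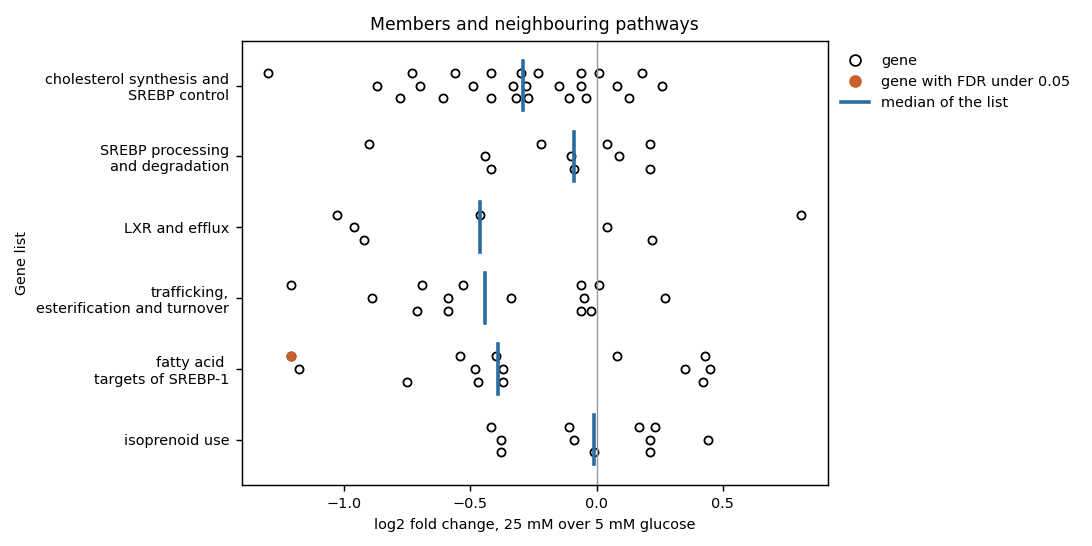
Log2 fold change of 25 mM over 5 mM glucose (horizontal axis) of each gene in the cholesterol set and in the 5 neighbouring lists; blue bars are list medians and the filled point is Scd1, the gene with an FDR under 0.05. Medians run from -0.46 for LXR and efflux to -0.01 for isoprenoid use, without the GC content and length offsets that bring these lists to 0.09 and 0.10.

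Gene positions on GRCm38 were chromosome 3, 89093588 to 89101959 for Fdps (ENSMUSG00000059743), chromosome 17, 12942890 to 12960747 for Acat2 (ENSMUSG00000023832) and chromosome 1, 169949535 to 169969241 for Hsd17b7 (ENSMUSG00000026675). Srebf2 (ENSMUSG00000022463) lies on chromosome 15, 82147181 to 82205379, and Srebf1 (ENSMUSG00000020538) on chromosome 11, 60199089 to 60222581. In the annotation, exons of Fdft1, Cyp51, Ggps1, Lbr and Srebf1 overlap those of Ctsb, Akap9, Arid4b, Dnah14 and Rai1 on the other strand, and exons of Tm7sf2 overlap Vps51 on the same strand. Hmgcs1, Idi1, Lss and Scap overlap noncoding genes on the other strand and Fdps one on the same strand. The sources do not say whether strand entered the counting, and the values of these genes may hold reads of their neighbours.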

How the data were processed

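Total RNA was made into strand-specific libraries from small amounts and sequenced from both ends. The authors deposited estimated counts (expected counts) per gene and per transcript, not normalized and with technical replicates apart; the labels name GRCm38, and the aligner and counter are not given in the sources used here. GENCODE M21 gave symbols for 48766 of 53707 gene identifiers. Technical replicates were summed and rounded, since the values are not whole. edgeR 4.0.16 (R 4.3.3) was used with TMM, filterByExpr and the quasi-likelihood test in its version 3 form, without a replicate block. Standard errors are the log2 fold change divided by the square root of F. The procedure was also run on simulated data with less spread between samples than these data and no tilt with GC content. That run checked the code and cannot show how well genes are called here. Transcript ratios used at least 60 counts of each form and 0.5 added to each. Alternatives covered DESeq2 1.42.0, limma-voom (limma 3.58.1), scaling, filters, batches, left-out samples, a replicate block and, added after seeing the data, GC content and length offsets by loess. Tables and plots used Python 3.11.15. Genes named are all members and the extremes (2 highest and 2 lowest) of 5 other lists; members and lists were chosen with earlier results of these data known. Counting intervals would cover counting error only. Some genes of these pathways are not reported.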

Additional observations from a re-analysis of the deposited data

Results flagged for a closer look

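Each gene's CPM, the library totals and the mitochondrial share were searched for single libraries far from the other 5 of their concentration, in 56 sets of 6 libraries, of which chance alone would give about 2.8. Tm7sf2 had 12.4 CPM in the first library of 25 mM replicate 1, where the other libraries at 25 mM held 5.98 to 7.15 CPM. Lbr had 72.0 CPM in the first library of 5 mM replicate 1, where the others at 5 mM held 49.6 to 51.7 CPM. The same library held 36692484 estimated counts, above the 17998905 to 25003397 of the others at 5 mM. Mitochondrial transcripts took 15.4% of the first library of 25 mM replicate 2, where the others at 25 mM had 7.94% to 10.2%, and this library also held the lowest CPM of all 12 in 14 of the 26 genes.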

How the results depend on the processing

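Of 572 values of the 26 genes under 22 alternatives, 505 kept their direction and their side of the FDR threshold of 0.05. A further 25 became called, all lower at 25 mM glucose, and 42 changed sign, none of them called. In the fits that called members, the share of all genes called lower was 3.47% without a filter, 9.54% with DESeq2 and 10.1% in batch 1 alone. It was 14.9% without 5 mM replicate 1, 6.3% with GC content and length offsets and 8.64% with a replicate block added to those offsets. The median log2 fold change of the 26 genes lay between -0.32 and -0.20 under all alternatives, and that of their retained-intron ratios between 0.50 and 0.92. The genes called were 0 of 26 and 417 of all genes in the fit reported above. Without a filter they were 1 and 1979, with DESeq2 5 and 3489, in batch 1 alone 2 and 3279, in batch 2 alone 0 and 0, with GC content and length offsets 5 and 2722, and with those offsets and a replicate block 5 and 3173. Leaving out 1 sample or library gave 0 to 7 members and 0 to 5845 genes, the highest without 5 mM replicate 1 and 0 genes when 25 mM replicate 1 or 2 or 5 mM replicate 2 or 3, or the first library of 25 mM replicate 2, was the one left out. Without the second library of 5 mM replicate 1 there were 1731 genes and 0 members. The cause of these changes was not tested, and with 1 sample fewer a group rests on 2. Mvd and Mvk had the lowest mean CPM of the 26 genes at both concentrations, and the part of depth in their spread was not tested.

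The replicate block gave 0 members and 990 genes called. Deviations of same-numbered samples correlated at -0.0138, -0.449 and 0.285, and samples at 25 mM did not correlate best with their own number. The deviations of most samples followed GC content across genes, so these correlations cannot show whether same-numbered samples shared an origin.

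The values that changed sign belonged to 10 genes, with values in the reported fit from -0.28 for Scap to 0.26 for Ggps1. Leaving out 1 sample or library in 8 ways never moved 8 of the 26 genes by over 1.5 times, namely Acat2, Fdps, Lss, Nsdhl, Hsd17b7, Ebp, Srebf2 and Stard4, and moved the other 18 by more in at least 1 of them. With GC content and length offsets, alone and with the replicate block, Hmgcs1 had -0.04 and -0.05, Pmvk 0.30 and 0.30, Ggps1 -0.03 and -0.03, Fdft1 0.04 and 0.03, Scap 0.29 and 0.29, and Insig2 -0.03 and -0.02. With limma-voom Pmvk and Idi1 had 0.01 each, with library totals Idi1 0.01 and Fdft1 0.02, with the replicate block Idi1 0.01, with a minimum of 1 CPM Fdft1 0.01, with transcript sums Sc5d 0.04, without a filter Tm7sf2 -0.01, and with RLE factors and DESeq2 Tm7sf2 -0.00. In batch 1 alone Pmvk had 0.19, Fdft1 0.15 and Insig2 -0.06, and in batch 2 alone Idi1 0.10 and Tm7sf2 -0.40. With a sample or library left out, Pmvk ranged from -0.34 to 0.23, Idi1 from -0.29 to 0.33, Fdft1 from -0.14 to 0.06, Cyp51 from -0.24 to 0.10, Tm7sf2 from -0.24 to 0.21, Scap from -0.55 to 0.00 and Insig2 from -0.04 to 0.33. The retained-intron ratio difference of Cyp51 was -0.25 and that of Msmo1 -0.08 in batch 2 alone; with a sample left out, Cyp51 ranged from -0.24 to 0.42 and Insig1 from -0.06 to 0.20.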
